A study of Mus musculus with 42 samples.

Results

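A set of 10 heat shock and chaperone genes was followed across 7 tissues of wild-type and *Tug1*-/- mice. The 10 genes were chosen by symbol (*Hspa1a*, *Hspa1b*, *Hsph1*, *Hspa8*, *Dnajb1*, *Bag3*, *Hsp90aa1*, *Hspb1*, *Hspd1* and *Hspe1*), with earlier results of these data known. Each was found once among the 26653 genes of the deposited table. Chaperones bind unfolded or partly folded proteins, keep them from aggregating and help them fold. Under heat or other protein stress the transcription factor HSF1 binds arrays of short GAA units, called heat shock elements, upstream of many of these genes and raises their transcription. *Hspa1a* and *Hspa1b* are known as strongly stress-inducible genes with little RNA in unstressed cells, *Hsph1* and *Dnajb1* as inducible genes that are also made without stress, and *Hspa8*, *Hspd1* and *Hspe1* as abundant in unstressed cells.

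The series holds polyA RNA sequencing of 42 samples, 22 wild-type and 20 knockout, from liver, heart, spleen, prostate, eyes and testes and from cultured mouse embryonic fibroblasts (MEFs). There were 3 samples of each genotype in every tissue except testes (4 wild-type, 3 knockout) and prostate (3 wild-type, 2 knockout). All samples came from males of the Tug1_tm1.1Vlcg line on a C57BL/6J background (N3-C57BL/6J, no Neo). *Tug1* is a long noncoding RNA gene. Wild-type animals carried 2 normal *Tug1* alleles and no *lacZ*, and in homozygous knockouts the gene body was replaced on both alleles by a *lacZ* reporter that sits behind the remaining promoter and first exon. The deletion was present in the whole animal, and the MEFs were primary cultures at passage 2 from littermate embryos. The labels used here give no ages for the mice.

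The deposited table gives 1 value per genotype and tissue, in FPKM (fragments scaled by transcript length and by the mapped fragments of the library), in which the authors combined the samples of a group. No value per sample, read count or depth was used here, so no value below has an error, no difference was tested, and no statement can be set against the spread between mice. Differences are therefore given by size, as log2((knockout + 0.1)/(wild type + 0.1)), which understates the change of genes at low levels. A gene was called measured in a tissue when the mean of its 2 values was at least 1 FPKM, and past the limit when the change of a measured gene was over 1.5 times. The tissues are bulk samples, in which fewer cells of a type and less RNA per cell cannot be told apart.

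*Tug1* itself was at 11.2 to 27.7 FPKM in the 7 wild-type values and at 0.0075 to 0.402 FPKM in the 7 knockout values, so the targeted gene followed the genotype labels in every tissue. The defining markers of each tissue were high there, with summed levels in wild type from 934 FPKM for lymphocyte markers in spleen to 40373 FPKM for sperm genes in testes. In the knockout these sums were lower in spleen (764 FPKM) and testes (34592). They were also lower in prostate (25518 and 21705), eyes (16768 and 16405) and MEFs (3960 and 3586). In heart (15222 and 15605) and liver (20863 and 21985) they were higher. Albumin (*Alb*) and *Serpina1a* were listed at 0 in both liver values, where *Apoa1* was at 12014 and 13744 FPKM. Markers of neighbouring tissues differed between the genotypes. In spleen the 4 pancreas markers summed to 2.09 FPKM in wild type and 1149 FPKM in the knockout, with *Amy2a5* listed at 0 in both. Red blood cell genes in spleen summed to 3430 and 6595 FPKM, and the 4 prostate markers to 0.0934 and 28.5 FPKM. In prostate 3 seminal vesicle genes summed to 8717 and 16536 FPKM, and 3 fat cell markers to 32.0 and 147 FPKM. In eyes 5 skeletal muscle markers summed to 1666 and 3042 FPKM, and fat cell markers to 31.4 and 150 FPKM. Red blood cell genes summed to 76.6 and 209 FPKM in eyes, 44.1 and 68.3 FPKM in prostate, 3349 and 5383 FPKM in heart and 369 and 361 FPKM in liver. In heart fat cell markers summed to 117 and 62.1 FPKM, and lymphocyte markers to 18.9 and 8.94 FPKM. The part of these tissue differences in the results below was not tested.

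The promoter sequences are shown first, because heat shock elements are the best known feature that several members share. In the RefSeq promoter table on GRCm38.p6, which covers 250 bases before and 50 bases from each annotated start, 8 of the 10 members had at least 1 window. The element was searched as 3 alternating units, GAANNTTCNNGAA or TTCNNGAANNTTC, which between them cover both strands and can overlap. An exact match of its 9 fixed bases lay in 0.603% of all 32851 windows and in at least 1 window of 0.662% of all 27025 genes of the table, and in windows of 3 members, *Hspd1*, *Hspe1* and *Hsph1*. With 1 mismatch allowed, a setting chosen after the exact matches were seen, the element lay in 7.22% of all windows, in 8.15% of all genes and in windows of 6 members, adding *Hspa1a*, *Hspa1b* and *Hspb1*. Windows of *Dnajb1* and *Bag3* held no match of either kind. A match describes the letters of these windows and is not evidence of binding. Capitals mark the triplets that follow the alternating pattern at a match.
*Hspa1a*, chr17:34972207-34972296, minus strand, bases -140 to -51 from the start: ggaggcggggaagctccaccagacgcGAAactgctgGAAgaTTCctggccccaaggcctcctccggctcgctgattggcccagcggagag
*Hsph1*, chr5:149636346-149636375, minus strand, bases -39 to -10: gaatctTTCtcGAAggctcgaGAAgaagga
*Hspb1*, chr5:135887779-135887838, plus strand, bases -140 to -81: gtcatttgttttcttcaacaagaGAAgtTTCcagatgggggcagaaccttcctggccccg
*Hspd1* and *Hspe1*, chr1:55088053-55088082, written on the plus strand, bases -95 to -66 from the *Hspe1* start: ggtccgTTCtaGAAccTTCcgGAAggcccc

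*Hspa1a* and *Hspa1b* carry the same 90 letters at the same distance from their starts, in *Hspa1b* at chr17:34959289-34959378 on the minus strand, and 296 of the 300 bases of their windows are identical. Their matches lie 114 to 97 bases before the start, each with 1 mismatch. The 4 alternating units printed for *Hspd1* and *Hspe1* are a single stretch of DNA that lies in windows of both genes. These genes are transcribed away from each other, and the stretch is counted for both. It lies in 1 of the 2 *Hspd1* windows, before that start but inside the outermost *Hspd1* gene model. In *Hsph1* the printed stretch has 1 mismatch in each of its matches, and the exact match lies after both annotated starts. The printed *Hsph1* stretch lies before both of these starts but inside the outermost *Hsph1* gene model. Its first match begins at -33 from the start used above and at -54 from the other start.

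Summed over tissues, knockout levels lay above wild type in 61 of the 70 pairs of values and below it in 9. The 4 pairs under the minimum level are all among the 61. No share of all genes above wild type was computed to set beside this count. The median change of all measured genes lay between -0.06 (testes) and 0.03 (heart). Of the 66 measured pairs, 17 were past the limit with the knockout higher and 0 with the knockout lower. These 17 fell in 4 tissues, prostate, spleen, heart and liver, and in 8 of the 10 genes, every member except *Hspb1* and *Hspe1*. Testes, eyes and MEFs had 0 measured members past the limit in either direction.

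**Figure D1:**
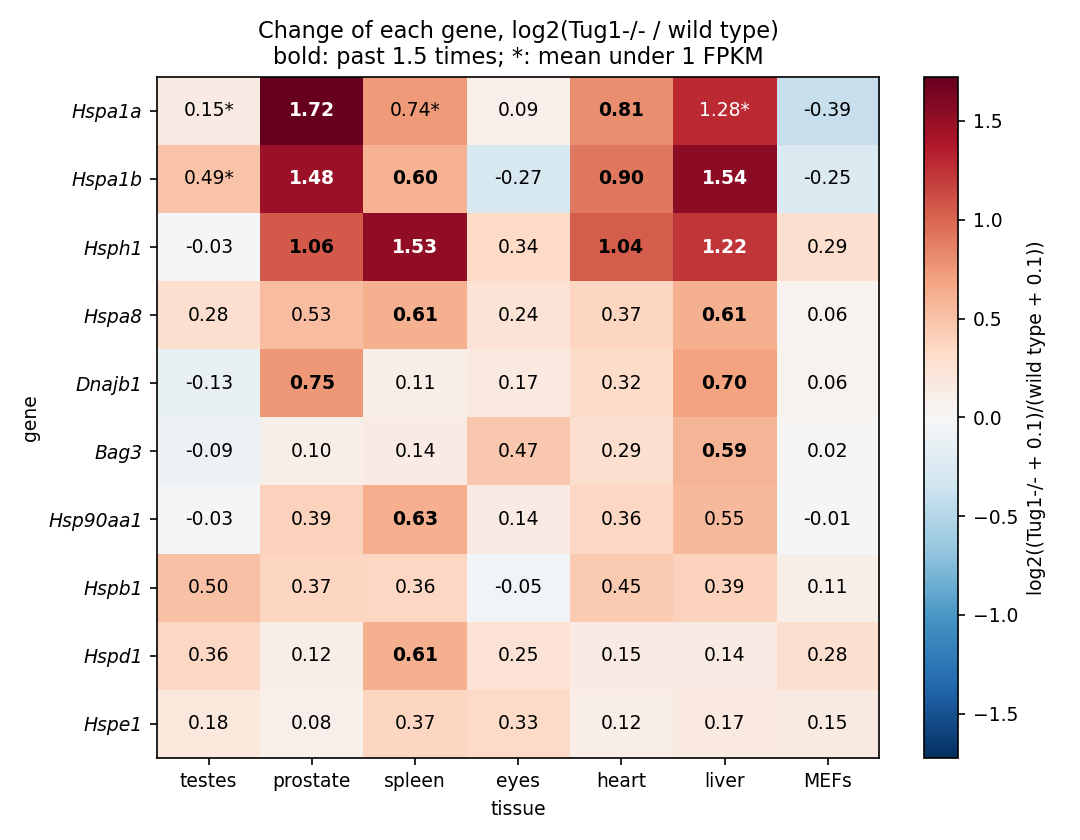
Change of each of the 10 genes (rows) in each tissue (columns), as log2((*Tug1*-/- + 0.1)/(wild type + 0.1)) of 1 pooled FPKM value per genotype; red is higher in the knockout, bold values are past 1.5 times and an asterisk marks a mean under 1 FPKM. The largest values are those of *Hspa1a* and *Hspa1b* in prostate (1.72 and 1.48), *Hsph1* in spleen (1.53) and *Hspa1b* in liver (1.54), and the columns of testes and MEFs stay between -0.39 and 0.50.

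The counts read differently against the background of each tissue. The members were chosen with earlier results of these data known, so the counts describe the set and give no independent support. In prostate 4 of 10 measured members were past the limit with the knockout higher, among 2.4% of all 12166 measured genes, and 0 were lower, against 0.682%. In liver 5 of 9 were higher, against 2.55% of 11711 measured genes, and 0 were lower, against 2.25%. In heart 3 of 10 were higher, against 0.874% of 12695 measured genes, and 0 lower, against 1.44%. Of all genes past the limit there, more were thus lower than higher, while the median change of all measured genes was 0.03. In spleen 5 of 9 were higher, against 4.91% of 12618 measured genes, the highest share of the 7 tissues, and 0 lower, against 1.1%. In the other tissues the counts were 0: in testes 0 of 8 members against 1.17% higher and 0.753% lower of all measured genes, in eyes 0 of 10 against 2.64% and 0.867%, and in MEFs 0 of 10 against 0.975% and 2.2%.

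The medians also set spleen, liver, prostate and heart above the other tissues. The median change of the measured members was 0.60 in spleen, 0.59 in liver, 0.46 in prostate and 0.36 in heart, and 0.20 in eyes, 0.07 in testes and 0.06 in MEFs. Over all measured genes the lowest median was -0.06 (testes) and the highest 0.03 (heart). The summed level of the 10 genes was 1.5 times wild type in spleen (1145 against 763 FPKM), 1.32 times in both prostate and liver, 1.24 times in heart, 1.12 times in eyes, 1.07 times in MEFs and 0.991 times in testes. *Hspa8* alone made up 49.0% of the summed difference in spleen, 49.6% in prostate, 47.9% in heart and 55.5% in liver. It was far more abundant than *Hspa1a*, *Hspa1b*, *Hsph1* and *Dnajb1* in these tissues. *Hspd1* was nearly as abundant in wild-type liver (401 against 422 FPKM) but made up 10.3% of the difference there.

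**Figure D2:**
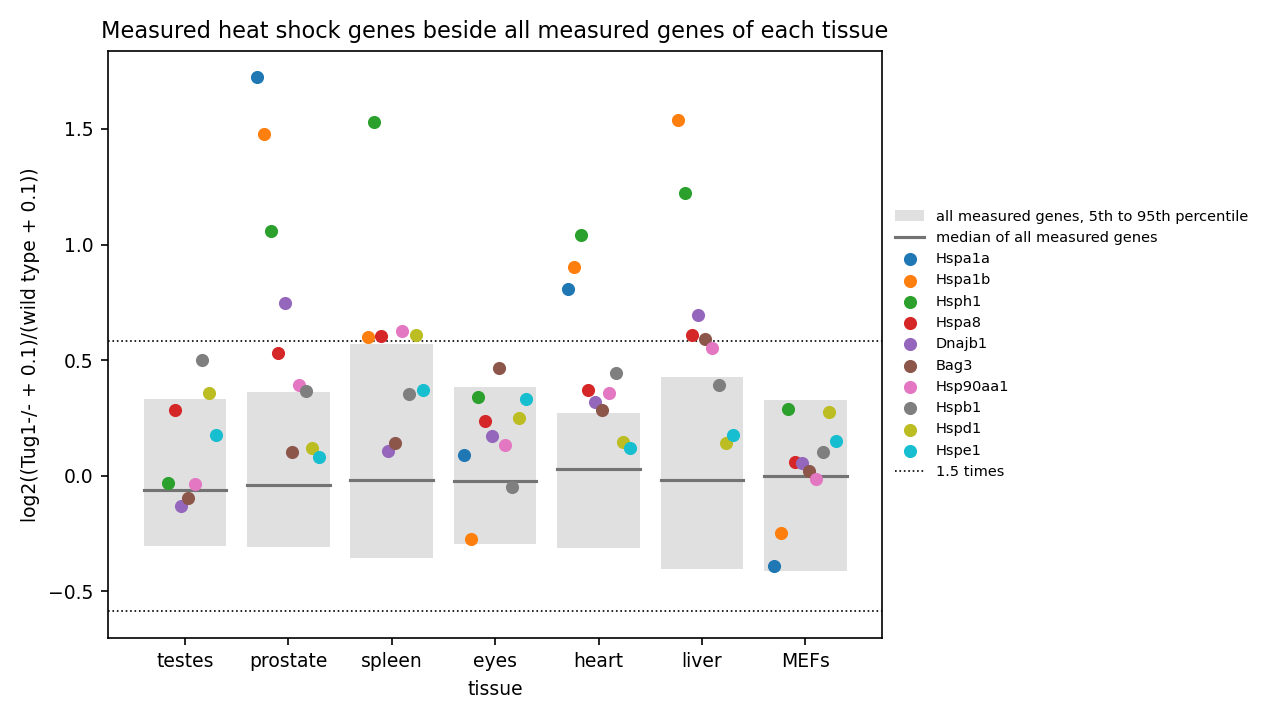
Change of the measured members (coloured points) in each tissue on the log2 scale of knockout over wild type, beside the 5th to 95th percentile (grey box) and the median (grey line) of all measured genes; dotted lines mark 1.5 times. In prostate, spleen, heart and liver several members stand above the grey box, and in eyes, testes and MEFs at most 2 do.

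The first group of members holds the HSP70 family and its helpers, beginning with the stress-inducible HSP70 genes. *Hspa1a* (ENSMUSG00000091971.2, chr17:34969190-34972156, minus strand of GRCm38) and *Hspa1b* (ENSMUSG00000090877.2, chr17:34956436-34959238, minus strand) encode nearly identical HSP70 proteins from neighbouring genes. Of all stretches as long as 1 read, 46.9% of those in the annotated *Hspa1a* transcript also occur in *Hspa1b* and 49.7% of those in *Hspa1b* occur in *Hspa1a*, so the split of reads between both genes is uncertain. Wild-type levels of *Hspa1a* were 0.272 FPKM in liver, 1.47 in heart, 0.582 in spleen, 2.36 in prostate, 4.17 in eyes, 0.546 in testes and 1.36 in MEFs. Knockout levels of *Hspa1a* were 0.805 FPKM in liver, 2.65 in heart, 1.04 in spleen, 8.02 in prostate, 4.44 in eyes, 0.615 in testes and 1.01 in MEFs. *Hspa1a* was thus a low-level gene throughout, measured in 4 of 7 tissues, and past the limit in prostate (3.40 times) and heart (a change of 0.81 on the log2 scale). In liver its value was 2.96 times and in spleen 1.78 times wild type, but both tissues were under the minimum level.

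*Hspa1b* was the more abundant of the pair in every tissue but testes. Its wild-type levels were 3.73 FPKM in liver, 2.27 in heart, 1.91 in spleen, 9.34 in prostate, 9.51 in eyes, 0.390 in testes and 6.82 in MEFs. Its knockout levels were 11.0 FPKM in liver, 4.34 in heart, 2.95 in spleen, 26.2 in prostate, 7.86 in eyes, 0.587 in testes and 5.73 in MEFs. *Hspa1b* was past the limit in 4 tissues, at 2.81 times in prostate, 1.54 times in spleen, 1.91 times in heart and 2.96 times in liver. In eyes and MEFs its knockout value was below wild type (0.826 and 0.840 times), within the limit.

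Summing both genes avoids the uncertain split. The sum was 2.93 times wild type in prostate (11.7 and 34.3 FPKM), 2.96 times in liver, where it reached 11.8 FPKM in the knockout,, 1.87 times in heart (3.75 and 6.99 FPKM) and 1.60 times in spleen (2.49 and 3.99 FPKM). In testes the sum was 0.936 and 1.20 FPKM, in eyes 13.7 and 12.3 FPKM and in MEFs 8.18 and 6.74 FPKM. Even where the ratio was highest, the inducible genes stayed a small part of cytosolic HSP70 RNA: in liver the sum was 0.948% of the *Hspa8* level in wild type and 1.84% in the knockout, and in prostate 4.21% and 8.52%.

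*Hsph1* (ENSMUSG00000029657.9, chr5:149614287-149636376, minus strand) encodes HSP105, a nucleotide exchange factor that releases ADP from HSP70. Wild-type levels of *Hsph1* were 17.1 FPKM in liver, 13.9 in heart, 19.1 in spleen, 15.3 in prostate, 14.3 in eyes, 21.2 in testes and 26.0 in MEFs. Knockout levels of *Hsph1* were 40.0 FPKM in liver, 28.8 in heart, 55.4 in spleen, 31.9 in prostate, 18.1 in eyes, 20.8 in testes and 31.8 in MEFs. *Hsph1* had the flattest wild-type profile of the members, with a highest level 1.87 times its lowest, and was past the limit in the same 4 tissues as *Hspa1b*. Its ratio was 2.90 in spleen, 2.35 in liver, 2.09 in prostate and 2.07 in heart, which placed it 24th of 12695 measured genes in heart and 53rd of 12618 in spleen by size of increase. In testes *Hsph1* was at 0.980 times wild type.

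*Hspa8* (ENSMUSG00000015656.10, chr9:40800984-40810087, plus strand) encodes HSC70, the constitutive cytosolic HSP70 that folds new proteins and strips clathrin from vesicles. Wild-type levels of *Hspa8* were 422 FPKM in liver, 421 in heart, 358 in spleen, 278 in prostate, 220 in eyes, 53.7 in testes and 777 in MEFs. Knockout levels of *Hspa8* were 645 FPKM in liver, 545 in heart, 546 in spleen, 402 in prostate, 259 in eyes, 65.5 in testes and 810 in MEFs. *Hspa8* was higher in the knockout in 7 of 7 tissues and past the limit in spleen (1.52 times) and liver (1.53 times), with prostate just under it (1.45 times). In absolute level its difference was the largest of the members in liver, 223 FPKM.

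*Dnajb1* (ENSMUSG00000005483.9, chr8:83608193-83612653, plus strand) encodes HSP40, a J-domain protein that delivers clients to HSP70 and stimulates its ATPase. Wild-type levels of *Dnajb1* were 17.7 FPKM in liver, 14.8 in heart, 35.0 in spleen, 16.3 in prostate, 24.6 in eyes, 183 in testes and 21.4 in MEFs. Knockout levels of *Dnajb1* were 28.7 FPKM in liver, 18.4 in heart, 37.7 in spleen, 27.4 in prostate, 27.7 in eyes, 167 in testes and 22.2 in MEFs. *Dnajb1* was past the limit in prostate (1.68 times) and liver (1.62 times). In spleen, where *Hsph1* was 2.90 times higher, *Dnajb1* was 1.08 times wild type. Its highest level was in testes in both genotypes, and there the knockout was at 0.915 times wild type.

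*Bag3* (ENSMUSG00000030847.7, chr7:128523616-128546981, plus strand) encodes a cochaperone that links HSP70 and small heat shock proteins to selective autophagy, with a known role in heart and skeletal muscle. Wild-type levels of *Bag3* were 16.2 FPKM in liver, 75.3 in heart, 3.96 in spleen, 21.7 in prostate, 8.41 in eyes, 15.1 in testes and 34.8 in MEFs. Knockout levels of *Bag3* were 24.5 FPKM in liver, 91.8 in heart, 4.38 in spleen, 23.3 in prostate, 11.7 in eyes, 14.2 in testes and 35.3 in MEFs. *Bag3* was past the limit in liver alone, and there only just (1.51 times). Its next ratios were 1.39 in eyes, where skeletal muscle markers were also higher in the knockout, and 1.22 in heart.

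**Figure D3:**
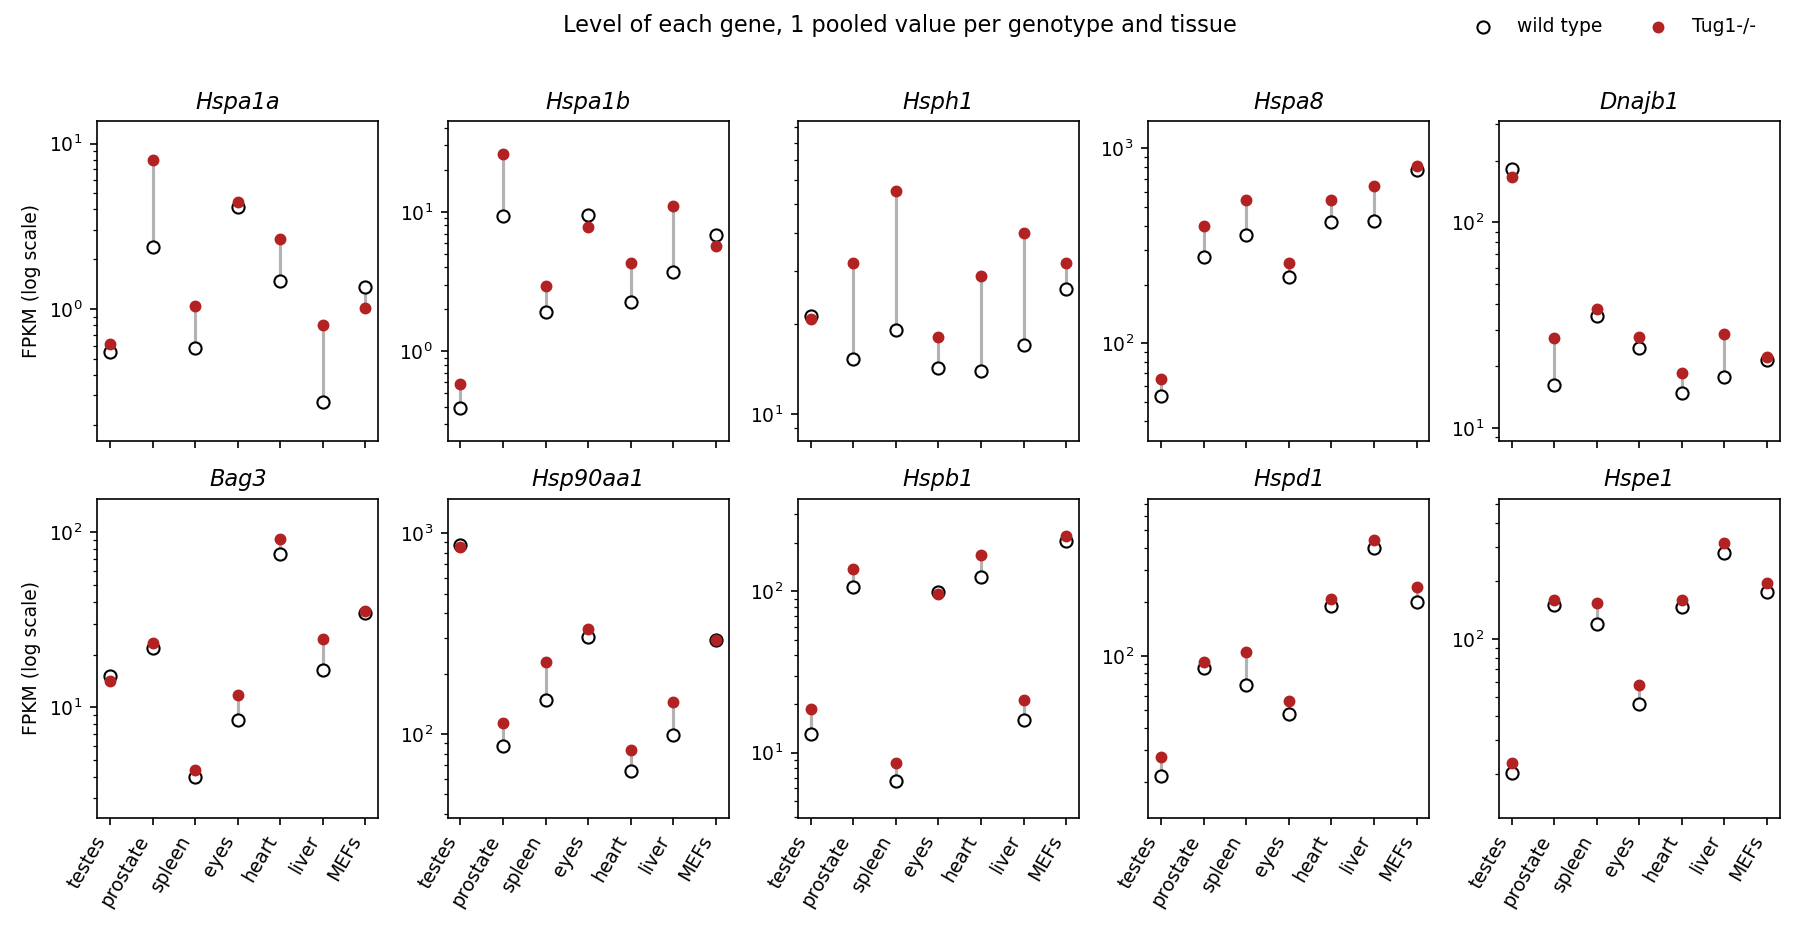
FPKM of each of the 10 genes on a log axis in the 7 tissues, with open circles for wild type and red points for *Tug1*-/-, 1 pooled value each and joined by a grey line. The lines are longest for *Hspa1a*, *Hspa1b* and *Hsph1* in prostate, heart and liver and for *Hsph1* in spleen (19.1 to 55.4 FPKM), and the circles of *Hspe1*, *Bag3* and *Hspd1* nearly touch in most tissues.

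HSP90 and the small heat shock proteins form the second group. *Hsp90aa1* (ENSMUSG00000021270.7, chr12:110690605-110702728, minus strand) encodes the inducible cytosolic HSP90, which matures kinases and steroid receptors. Wild-type levels of *Hsp90aa1* were 98.9 FPKM in liver, 65.1 in heart, 148 in spleen, 87.0 in prostate, 304 in eyes, 876 in testes and 295 in MEFs. Knockout levels of *Hsp90aa1* were 145 FPKM in liver, 83.6 in heart, 229 in spleen, 114 in prostate, 334 in eyes, 855 in testes and 292 in MEFs. *Hsp90aa1* was past the limit in spleen (1.54 times), and liver lay just under it (1.47 times). Testes had by far its highest level, and there and in MEFs the knockout value was slightly below wild type (0.977 and 0.990 times). Its constitutive partner *Hsp90ab1*, which is no member, was higher in the knockout in 7 of 7 tissues and past the limit in 0, with changes from 0.04 in prostate to 0.48 in spleen.

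*Hspb1* (ENSMUSG00000004951.10, chr5:135887919-135889563, plus strand) encodes HSP27 (HSP25 in mouse), a small heat shock protein that holds unfolded proteins without using ATP. Wild-type levels of *Hspb1* were 16.0 FPKM in liver, 122 in heart, 6.71 in spleen, 106 in prostate, 99.1 in eyes, 13.1 in testes and 205 in MEFs. Knockout levels of *Hspb1* were 21.0 FPKM in liver, 167 in heart, 8.61 in spleen, 137 in prostate, 95.9 in eyes, 18.6 in testes and 220 in MEFs. *Hspb1* was higher in the knockout in 6 of 7 tissues but past the limit in 0. Its largest ratio was in testes (1.42 times), the tissue where *Hsph1*, *Dnajb1*, *Bag3* and *Hsp90aa1* were below wild type.

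*Hspd1* and *Hspe1* encode HSP60 and HSP10, the barrel and the lid of the mitochondrial chaperonin. *Hspd1* (ENSMUSG00000025980.8, chr1:55077835-55088243, minus strand) and *Hspe1* (ENSMUSG00000073676.4, chr1:55088132-55091307, plus strand) are neighbours whose outermost annotated starts overlap by 112 bases, and reads of this overlap cannot be told apart without strand. GENCODE vM21 names 5 pseudogenes after *Hspd1* and 6 after *Hspe1*, which could also share reads. Wild-type levels of *Hspd1* were 401 FPKM in liver, 189 in heart, 68.8 in spleen, 85.3 in prostate, 47.5 in eyes, 21.4 in testes and 200 in MEFs, and knockout levels were 442, 209, 105, 92.7, 56.4, 27.5 and 242 FPKM in the same order. Wild-type levels of *Hspe1* were 279 FPKM in liver, 147 in heart, 120 in spleen, 151 in prostate, 46.3 in eyes, 20.2 in testes and 175 in MEFs, and knockout levels were 315, 160, 155, 160, 58.3, 22.9 and 195 FPKM in the same order. Both genes were higher in the knockout in 7 of 7 tissues, both had their highest level in liver and lowest in testes, and both had their largest ratio in spleen, at 1.53 times for *Hspd1* and 1.29 times for *Hspe1*. In prostate, heart and liver, where the sum of *Hspa1a* and *Hspa1b* was 1.87 to 2.96 times wild type, the pair was at 1.06 to 1.13 times.

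Several values lay close to the limit of 1.5 times. Just inside it were *Bag3* in liver (1.51 times), *Hspa8* in spleen (1.52 times) and liver (1.53 times), *Hspd1* in spleen (1.53 times), and *Hspa1b* and *Hsp90aa1* in spleen (both 1.54 times). Just outside it were *Hspa8* in prostate (1.45 times) and *Hsp90aa1* in liver (1.47 times). In spleen 4 of the 5 members past the limit were thus within 1.52 to 1.54 times, and *Hsph1* was the exception at 2.90 times. At a limit of 2 times, 7 pairs were left: *Hspa1a* and *Hspa1b* in prostate, *Hspa1b* in liver, and *Hsph1* in prostate, spleen, heart and liver. Spleen was also the tissue with pancreas markers in the knockout value, and without it the count was 12 of 57 measured pairs. Without prostate it was 13 of 56.

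Across the 7 tissues the changes of some members followed each other and those of others did not. Pearson's r over the 7 changes is given as a description, since the tissues of an animal line are not independent samples and each point is a single pooled difference. The profiles include the 4 pairs of values of *Hspa1a* and *Hspa1b* under the minimum level. Among *Hspa1a*, *Hspa1b*, *Hsph1*, *Hspa8*, *Dnajb1* and *Hsp90aa1* the 15 pairs had r from 0.60 to 0.98, the last for *Hsph1* with *Hsp90aa1*. With these genes *Bag3* had r from 0.24 (*Hspa1b*) to 0.54 (*Dnajb1*), and *Hspb1* from 0.17 (*Dnajb1*) to 0.73 (*Hspa1b*). *Bag3* and *Hspb1* had r = -0.26 with each other. *Hspd1* and *Hspe1* had r = 0.74 with each other, and -0.65 to 0.22 with the 8 other members. A mean change was taken over *Hspa1a*, *Hspa1b*, *Hsph1* and *Dnajb1*, a chosen subset of 4 that leaves out the inducible *Hsp90aa1*. This mean was 1.25 in prostate, 1.19 in liver, 0.77 in heart, 0.74 in spleen, 0.12 in testes, 0.08 in eyes and -0.07 in MEFs. Over the measured genes alone it was 1.15 in liver (3 genes), 0.75 in spleen (3 genes) and -0.08 in testes (2 genes), so its sign turned in testes. Of 8866 other genes measured in every tissue, those most like the profile of the 4 genes were *Cast* (r = 0.96), *Cldn25* (0.95), *Cbr1* (0.95), *Ccdc71* (0.94) and *Npat* (0.94), whose own changes lay between -0.16 and 0.14 and so were far smaller.

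The wider HSP70 system was mostly unlike *Hspa1a*, *Hspa1b*, *Hsph1* and *Dnajb1*. Of 22 other genes of the cytosolic HSP70 system and its cochaperones, 1 of 20 measured was past the limit in prostate, 4 of 20 in spleen, 1 of 21 in heart and 0 in each of the other tissues, each with the knockout higher. Of all measured genes, 2.4% in prostate, 4.91% in spleen and 0.874% in heart were higher past the limit. The 4 in spleen were *Bag2*, a BAG domain cochaperone (2.05 and 5.21 FPKM, change 1.30), *Dnaja4*, a J-domain protein (4.78 and 10.3 FPKM, 1.09), *Hspa4l*, an HSP110 relative of *Hsph1* (6.59 and 11.7 FPKM, 0.82), and *Dnajb2*, another J-domain protein (9.18 and 15.4 FPKM, 0.74). *Dnaja4* was also past the limit in prostate (0.61), and *Dnaja1* was past it in heart (59.5 and 96.6 FPKM, 0.70). *Hspa4*, the other cytosolic HSP110 gene, had changes from -0.07 to 0.14 in the 7 tissues, and the germ cell HSP70 genes *Hspa2* (578 and 532 FPKM) and *Hspa1l* (65.1 and 58.1 FPKM) were high in testes with the knockout slightly lower. The median change of this list was between -0.12 in testes and 0.12 in spleen.

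Partners of HSP90 differed more, chiefly in spleen. Of 10 measured genes of HSP90 and its cochaperones, 5 were past the limit with the knockout higher in spleen: *Stip1*, which bridges HSP70 and HSP90 (41.6 and 78.3 FPKM, change 0.91), *Chordc1* (26.3 and 46.3 FPKM, 0.81), the immunophilin *Fkbp4* (51.0 and 86.9 FPKM, 0.77), and the HSP90 activators *Ahsa2* (0.66) and *Ahsa1* (0.61). *Chordc1*, an HSP90 cochaperone, was past the limit in prostate (0.70) and liver (0.59) as well. In eyes the muscle cochaperone *Unc45b* was past it (5.28 and 8.71 FPKM, 0.71), beside the higher skeletal muscle markers named above. Among all measured genes, 4.91% in spleen, 2.4% in prostate, 2.55% in liver and 2.64% in eyes were higher past the limit. The median change of this list was 0.54 in spleen, 0.32 in heart, 0.23 in liver, 0.15 in eyes, 0.14 in MEFs, 0.12 in prostate and -0.08 in testes.

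Other chaperone compartments had few genes past the limit. Of 10 further mitochondrial chaperones, and of 14 genes found for the TRiC chaperonin and prefoldin, 0 were past it in any tissue. Among the other small heat shock genes, *Hspb8* was past it in eyes and in testes (0.493 and 1.63 FPKM), where its wild-type value was under 1 FPKM and it reached the minimum level through the knockout value, and *Hspb7* (5.74 and 10.5 FPKM) and *Hspb3* (2.89 and 4.44 FPKM) were past it in eyes. In eyes this list had a median change of 0.55. Higher past the limit were 2.64% of all measured genes in eyes and 1.17% in testes. *Hspb7* and *Hspb3* are small heat shock genes of muscle, and the skeletal muscle markers were higher in the same knockout value of eyes. Of 20 endoplasmic reticulum chaperone and unfolded protein response genes, 2 were past the limit in prostate, 1 in spleen and 3 in liver, all with the knockout higher. They were *Herpud1*, an ER degradation factor, in prostate (209 and 404 FPKM, change 0.95) and liver (0.69), the stress transcription factor *Ddit3* in prostate (0.72), *Creld2* in liver (0.86) and spleen (0.67), and *Manf* in liver (0.70). All-gene shares higher past the limit were 2.4% in prostate, 4.91% in spleen and 2.55% in liver, so 1 of 20 in spleen was near its share. In spleen 20 of these 20 genes were above wild type, with a median change of 0.36, in the value that also carried pancreas markers. The median change of all measured genes in spleen was -0.02.

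The genes of the heat shock transcription factors and of the factor-binding protein HSBP1 were close to wild type throughout. Of the 5 genes of this list (*Hsf1*, *Hsf2*, *Hsf4*, *Hsf5* and *Hsbp1*), 3 or 4 were measured per tissue and 0 were past the limit. The largest change of a measured gene was -0.24, for *Hsbp1* in MEFs. *Hsf1*, the factor that acts on heat shock elements, was at 18.5 and 16.4 FPKM in testes, 11.5 and 11.2 in prostate, 13.1 and 14.9 in spleen, 15.0 and 17.1 in heart and 8.53 and 9.28 in liver. Its change in the 7 tissues lay between -0.18 and 0.19. HSF1 activity is largely set after transcription and was not measured.

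Lists of glucocorticoid-induced, immediate early and clock genes were read beside the members. These lists were also chosen with earlier results of these data known. Of 8 glucocorticoid-induced genes, 6 of 8 measured were past the limit with the knockout higher in liver, 6 of 8 in heart, 4 of 7 in spleen, 3 of 8 in prostate, 3 of 8 in eyes, 1 of 8 in testes and 0 of 6 in MEFs, and 0 were lower in any tissue. The shares of all measured genes higher past the limit are those given above, 2.55% in liver, 0.874% in heart, 4.91% in spleen, 2.4% in prostate, 2.64% in eyes, 1.17% in testes and 0.975% in MEFs. Eyes thus had the same count of this list as prostate, 3 of 8, but 0 of the 10 heat shock genes. The gene in testes was *Lcn2*, those in prostate were *Fkbp5*, *Lcn2* and *Tsc22d3*, those in eyes *Lcn2*, *Tsc22d3* and *Zbtb16*, and those in spleen *Fkbp5*, *Lcn2*, *Mt1* and *Mt2*. The median change of the list was 1.14 in liver, 0.72 in heart, 0.70 in spleen, 0.49 in prostate, 0.41 in eyes, 0.14 in testes and 0.11 in MEFs. *Fkbp5*, an HSP90 cochaperone that glucocorticoids induce, was at 12.4 and 22.1 FPKM in prostate, 14.8 and 30.4 in spleen, 5.77 and 15.9 in heart and 12.3 and 26.2 in liver, with 22.4 and 25.2 in testes and 13.1 and 15.9 in MEFs. *Zbtb16* was at 1.61 and 5.71 FPKM in liver, *Mt2*, a metallothionein, at 13.7 and 38.8 in liver, and *Lcn2*, also an acute-phase gene, at 14.1 and 37.6 in spleen.

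Immediate early genes were past the limit in both directions. Of 18 such genes, 15 to 17 were measured per tissue, and the knockout was lower past the limit for 4 in liver, 3 in heart and 1 each in prostate, spleen and eyes, and higher for 2 in testes, 1 in heart and 1 in liver. The shares of all measured genes lower past the limit were 2.25% in liver, 1.44% in heart, 0.682% in prostate, 1.1% in spleen and 0.867% in eyes. For higher past the limit they were 1.17% in testes, 0.874% in heart and 2.55% in liver. The median change of the list was 0.27 in testes, 0.14 in liver, where 9 of 15 measured genes were above wild type, 0.14 in MEFs, -0.14 in eyes, -0.20 in prostate, -0.25 in spleen and -0.28 in heart. The lower genes were *Fos*, *Egr1*, *Nr4a1* and *Junb* in liver, *Fos*, *Egr1* and *Nr4a1* in heart, *Jun* in prostate, *Fos* in spleen and *Egr1* in eyes, and the higher ones were *Klf6* and *Ier3* in testes and *Gadd45b* in heart and liver. *Ier3* in testes (0.916 and 1.62 FPKM) and *Gadd45b* in liver (0.993 and 1.64 FPKM) had wild-type values under 1 FPKM and reached the minimum level through the knockout value. *Nr4a1* was at 13.6 and 2.00 FPKM in liver, *Egr1* at 16.5 and 6.40 and *Fos* at 11.0 and 4.33 in heart, and *Jun* at 19.5 and 11.4 in prostate. Of 16 clock and output genes, 1 of 16 measured was higher past the limit in prostate, 2 of 15 in heart and 1 of 14 in liver. The knockout was lower past it for 1 in heart and 2 in liver. Among these genes *Per2* was at 3.92 and 8.67 FPKM in heart, *Bhlhe41* at 4.66 and 2.19, *Gm129* at 11.3 and 18.8 and *Nfil3* at 13.2 and 8.28 in liver. *Per2* was the higher gene in prostate, *Per2* and *Gm129* were those in heart, and *Arntl* was the lower one in heart. Beside the clock counts, 2.4% of all measured genes in prostate, 0.874% in heart and 2.55% in liver were higher past the limit. Lower past it were 1.44% in heart and 2.25% in liver. *Per1* stands in both the glucocorticoid and the clock list. The part of the differences of these 3 lists in the heat shock result was not tested.

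**Figure D4:**
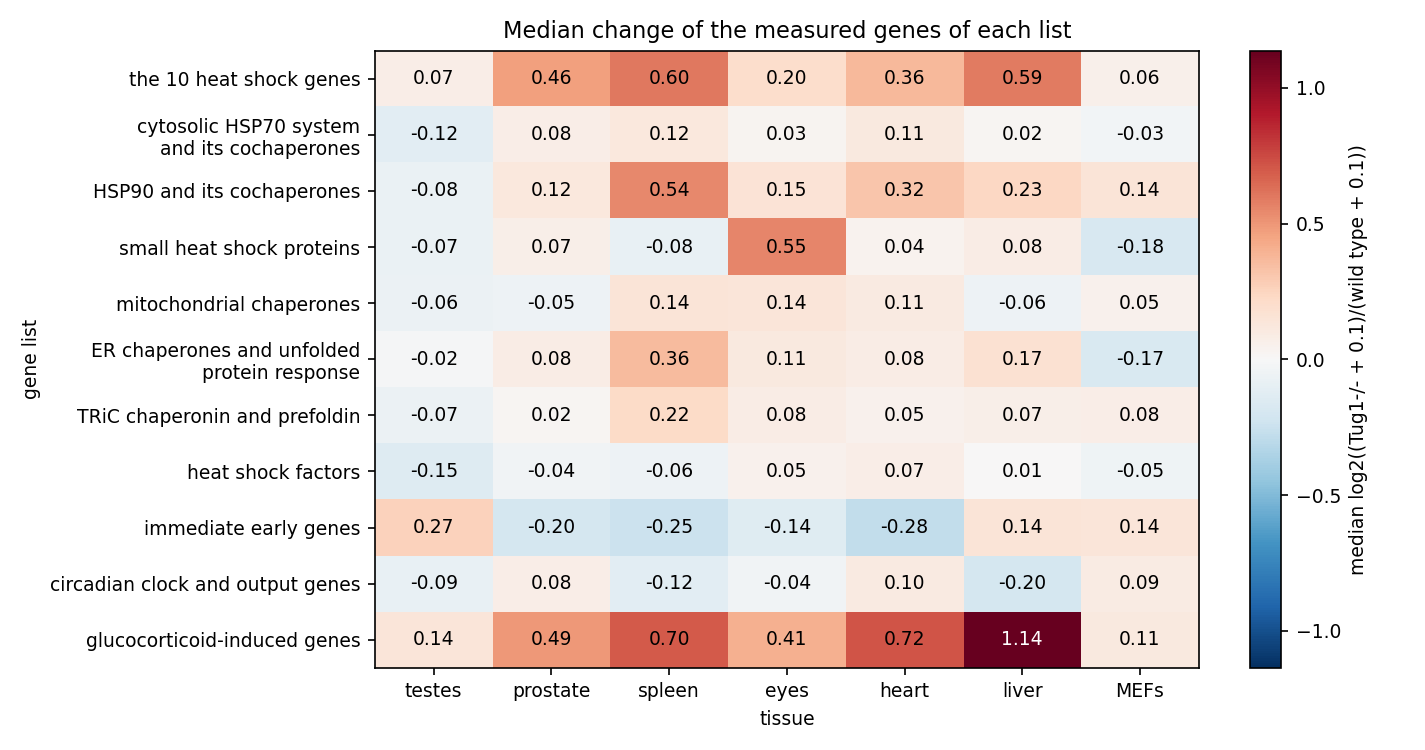
Median change of the measured genes of each list (rows) in each tissue (columns), as log2 of knockout over wild type with 0.1 added to each value. The row of the 10 heat shock genes and that of the glucocorticoid-induced genes are both highest in prostate, spleen, heart and liver (0.36 to 0.60 and 0.49 to 1.14), and the heat shock factor row stays between -0.15 and 0.07.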

How the data were processed

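RNA had been sequenced from 42 mouse samples of 7 tissues with the TruSeq RNA Sample Preparation Kit v2, which does not keep the strand, as paired reads. The GEO processing notes of the submitters name CASAVA 1.8.2, TopHat2, Cuffdiff and mm10, and the methods of the study describe another route for its own calls. The deposited table holds 1 FPKM value per genotype and tissue, in which the authors combined the samples of each group. The unit is that of the Cuffdiff layout and is not named in the header. Its columns of fold changes, test statistics, p-values and q-values are the authors' comparisons and were not used. The table also holds 1 further tissue that matches no sample label and was not analysed here. Values were read with Python 3.11.15, numpy 2.4.6 and pandas 2.3.3, and plotted with matplotlib 3.10.9.

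Changes were computed as log2((knockout + 0.1)/(wild type + 0.1)) and counted for genes with a mean of at least 1 FPKM past 1.5 times. The study used this fold limit for genes around *Tug1*, together with a limit on the false discovery rate that was not applied here. With 1 pooled value per group there was no test, error or depth. The count step was tested on simulated data. The members and gene lists were chosen with earlier results of these data known. Genes named outside the members were, per list, up to 4 with the largest change past the limit and those that a small count refers to, together with 5 genes with the most similar profile. *Hsp90ab1*, *Hspa2*, *Hspa1l*, *Hspa4* and *Hsf1* were named for their family or role after their values were seen. Promoters came from a RefSeq table on GRCm38.p6 and gene positions from GENCODE vM21. Alternatives were pseudocounts of 1 and 0.01, centring on the median of all genes, a limit of 2 times, no minimum level, and the sum of *Hspa1a* and *Hspa1b*. Leaving out spleen or prostate and allowing 1 mismatch in the motif were added after the data were seen.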

Additional observations from a re-analysis of the deposited data

How the results depend on the processing

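No direction past the limit was reversed under any alternative, and 0 pairs were lower past the limit in each. Higher pairs numbered 17 of 66 measured as reported, 17 with a pseudocount of 0.01 or after centring on the median of all genes, 14 with a pseudocount of 1, 19 of 70 without a minimum level, 15 of 63 with *Hspa1a* and *Hspa1b* summed, and 7 at a limit of 2 times. At 2 times the count fell from 5 to 1 in spleen, from 3 to 1 in heart and from 5 to 2 in liver, by construction. The pairs no longer past the limit with a pseudocount of 1 were *Hspa1a* in heart, *Hspa1b* in spleen and *Bag3* in liver. *Bag3* thus had no pair past the limit under that setting. A pseudocount of 1 moved the median change of the members in spleen to 0.44, and summing the pair moved it in testes to 0.18. Changes of *Hspa1a* and *Hspa1b*, the lowest members, moved by over 0.1 in 9 pairs with a pseudocount of 1, for example *Hspa1a* in liver to 0.50. No paired analysis was possible because values per sample were not used here, and for the same reason no sample could be left out and the replicate error and the depth are unknown.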
